A study of Mus musculus with 6 samples.

Results

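*Wnt2*, *Wnt2b*, *Wnt3*, *Wnt3a*, *Wnt4*, *Wnt6*, *Wnt7b*, *Wnt10a*, *Wnt10b* and *Wnt16* are Wnt ligands usually assigned to the canonical, β-catenin-dependent branch of Wnt signaling. They were chosen by this class and by symbol rather than by their values, though with earlier results of these data known. All 10 were among the 27506 genes of the count table. Of these, 8 had enough reads to be tested, whereas *Wnt2* and *Wnt16* did not pass the filter on low counts. The table held 17 Wnt ligands in all. The other 7 served for comparison as the rest of the family and were not chosen as a noncanonical class.

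RNA-seq was performed on dental pulp dissected from the mandibular first molar of C57BL/6 mice at P3.5 (3.5 days after birth). There were 3 libraries from *Ror2 fl/fl* mice, called control here, and 3 libraries of the genotype *Osr2-Cre;Ror2 fl/fl*, called mutant. By the genotype labels, both groups carried the floxed *Ror2* allele, and only the mutant group carried the Cre. The title of control library 1 has another letter code than those of the other controls, and the labels do not explain these codes, so a difference in genotype or litter within the control group was not tested. As the study describes it, *Osr2-Cre* acts in the mesenchyme of the tooth and in alveolar bone and spares the dental epithelium, so a ligand made by the epithelium comes from cells that keep *Ror2*. The labels do not say how many animals a library holds, so p-values measure the spread between these libraries, which may be technical in part. No batch entered the comparison, so a batch of dissection or sequencing that coincided with genotype could not be told apart from it. Library totals were 56134800 to 62628900 estimated counts. *Ror2* itself, a receptor of the noncanonical branch, was 38.2, 36.2 and 36.7 TMM-scaled CPM (counts scaled to the size of each library) in the controls and 27.9, 28.1 and 26.3 CPM in the mutants, a log2 fold change of -0.43 (SE 0.08, adjusted p = 0.013 by edgeR's quasi-likelihood test). Its adjusted p was 0.066 and 0.075 without control library 2 or 3. In sections at this age, the study no longer detected Ror2 in the mutant dental mesenchyme, whereas the epithelium kept it. The RNA of bulk pulp given here is another measure. In bulk tissue, fewer cells of a type and less RNA per cell cannot be told apart. The libraries also held much RNA of dental epithelium. Together, 18 epithelial marker genes had 173541 to 193521 TMM-scaled CPM in the control libraries and 186843 to 257160 CPM in the mutant libraries. Most of this sum came from the enamel protein genes *Amelx*, *Ambn* and *Enam*, so it does not measure the epithelium as a whole. From control to mutant, mean *Amelx* rose from 94466 to 139642 CPM, while *Ambn* went from 64773 to 60042 CPM and *Enam* from 19867 to 14297 CPM.

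Wnt proteins are secreted, lipid-modified glycoproteins. Canonical Wnts bind a Frizzled receptor together with *Lrp5* or *Lrp6*, which stops the destruction complex of *Apc*, Axin and their kinases from degrading β-catenin, so that β-catenin enters the nucleus and acts with TCF/LEF factors on genes such as *Axin2*. The division into classes depends on the receptors present and is not strict: *Wnt4*, for example, also signals without β-catenin. In teeth, Wnt ligands of the dental epithelium act from tooth initiation onwards, and loss of WNT10A function is a common cause of missing teeth in humans.

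The members lie on 6 chromosomes of the mm10 genome, partly beside other Wnt genes. *Wnt6* (chromosome 1, 74771892 to 74785322) and *Wnt10a* (74791516 to 74804179) are on the plus strand with 6193 bases between them. *Wnt3a* (chromosome 11, 59248033 to 59290752, minus strand) is followed after 16175 bases by *Wnt9a* on the plus strand, and *Wnt9b* and *Wnt3* (chromosome 11, 103774150 to 103817957, plus strand) have the same divergent layout with a gap of 24328 bases. *Wnt4* is on chromosome 4 (137277489 to 137299726), *Wnt2b* on chromosome 3 (104945272 to 104961921), *Wnt7b* (85535437 to 85582473) and *Wnt10b* (98770712 to 98778150) on chromosome 15, and *Wnt2* (17988940 to 18030585) and *Wnt16* (22288227 to 22298522) on chromosome 6. Of the members, *Wnt7b* shared stretches of 75 bases (140 of them) with an overlapping antisense gene, *AU022754*, at the limit of 20 used here, and the use of strand in counting is not given in the sources used here. Adding the counts of *AU022754* left the log2 fold change of *Wnt7b* at 0.14. The exonic sequence of the members was rich in G and C, between 51.9% for *Wnt10b* and 63.8% for *Wnt10a* among those tested, and this property bears on the comparison of the groups further on.

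Promoter sequences are shown for *Wnt3a*, *Wnt4* and *Wnt10b*, the members in which all mutant libraries were above all control libraries. RefSeq's table for build GRCm38.p6, which has the coordinates of mm10, held promoter windows of 300 bases, placed by RefSeq's start of each gene, for 8 of the 10 members. There were none for *Wnt7b* and *Wnt10a*. Against the GENCODE gene used for the counts, 249 bases of the window for *Wnt3a* lie upstream of the gene, but 104 of that for *Wnt4*, whose window thus lies mostly within the gene, as do those of *Wnt2* (110) and *Wnt2b* (38). The promoters of *Wnt3a* (chr11:59290702-59291001, minus strand), *Wnt4* (chr4:137277385-137277684, plus strand) and *Wnt10b* (chr15:98778101-98778400, minus strand) read as follows, 5′ to 3′ on the strand of the gene, with each GC box (GGGCGG, or CCGCCC on the other strand) in capitals.
Wnt3a: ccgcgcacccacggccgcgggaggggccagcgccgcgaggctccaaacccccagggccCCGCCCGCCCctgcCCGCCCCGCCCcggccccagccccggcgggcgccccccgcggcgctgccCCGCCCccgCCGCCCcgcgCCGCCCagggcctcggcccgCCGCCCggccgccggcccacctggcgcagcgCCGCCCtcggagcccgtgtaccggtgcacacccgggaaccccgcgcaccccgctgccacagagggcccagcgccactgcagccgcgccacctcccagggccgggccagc
Wnt4: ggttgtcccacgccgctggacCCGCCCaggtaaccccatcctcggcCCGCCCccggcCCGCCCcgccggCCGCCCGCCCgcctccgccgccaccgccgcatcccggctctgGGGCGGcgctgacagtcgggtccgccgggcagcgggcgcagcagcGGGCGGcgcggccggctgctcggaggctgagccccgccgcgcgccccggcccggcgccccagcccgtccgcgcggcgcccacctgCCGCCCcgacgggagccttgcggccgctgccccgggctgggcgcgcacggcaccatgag
Wnt10b: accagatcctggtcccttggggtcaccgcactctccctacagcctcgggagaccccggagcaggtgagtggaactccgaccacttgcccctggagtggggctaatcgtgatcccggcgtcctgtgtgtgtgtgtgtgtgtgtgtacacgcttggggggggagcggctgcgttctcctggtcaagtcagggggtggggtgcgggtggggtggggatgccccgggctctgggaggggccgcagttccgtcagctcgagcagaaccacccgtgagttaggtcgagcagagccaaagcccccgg
The letters GGGCGG, searched on both strands with overlapping copies counted separately, occurred 9 times in the *Wnt3a* promoter, 8 times in that of *Wnt4* and 0 times in that of *Wnt10b*. Over the members, 6 of 8 promoters held them, against 35.9% of all 27025 promoters in the table. The promoters of *Wnt3a* and *Wnt4* were 86.3% and 84.3% G and C, against a median of 52.7% over all promoters. Neither the letters CTTTGA, the core of a TCF/LEF motif, which 16.2% of all promoters held, nor TATAAA, which 14.2% held, occurred in any of the 8 promoters on either strand. These matches describe letters in a window of 300 bases and say nothing about the factors that bind there.

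Levels of different genes were compared as CPM per kilobase (kb) of exon. In the control libraries, *Wnt6* had the highest level of the members, 58.6 ± 4.21 CPM per kb (SD, n = 3), followed by *Wnt10a* at 41.1 ± 5.06, *Wnt4* at 37.9 ± 3.12, *Wnt3a* at 20.5 ± 3.29 and *Wnt7b* at 7.49 ± 1.08. These 5 genes made up 99.2% of the members' summed level in the controls and 99.1% in the mutants, on average. The other members were far lower, with *Wnt10b* at 0.763 ± 0.160 CPM per kb, *Wnt2b* at 0.306 ± 0.065 and *Wnt3* at 0.241 ± 0.021. Libraries of *Wnt10a* and *Wnt4* overlapped, as did those of *Wnt2b* and *Wnt3*, so their order was not set beyond the spread, in either group. The steps from *Wnt6* to *Wnt10a*, from *Wnt4* to *Wnt3a*, from *Wnt3a* to *Wnt7b* and from *Wnt7b* to *Wnt10b* did not overlap in either group. In the mutant libraries the order was the same except within the overlapping pairs, with *Wnt4* at 46.4 ± 2.59 before *Wnt10a* at 41.9 ± 6.26, and *Wnt3* at 0.369 ± 0.129 before *Wnt2b* at 0.284 ± 0.068.

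**Figure D1:**
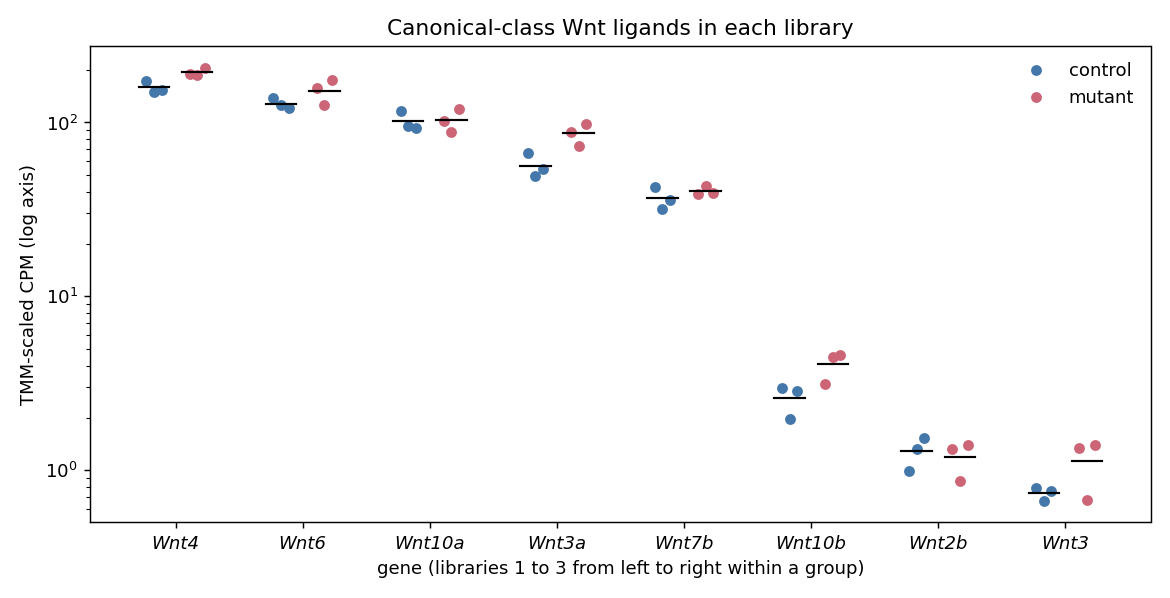
TMM-scaled CPM (log axis) of the 8 members tested in the 3 control (blue) and 3 mutant (red) libraries; points are libraries and bars are means. Mutant libraries of *Wnt3a*, *Wnt4* and *Wnt10b* all sit above the control libraries, whereas those of *Wnt10a*, with means of 101 and 103 CPM, are mixed with them.

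*Wnt2*, best known from lung and heart, was at 3, 0 and 2 counts in the control libraries and at 0 in all mutant libraries. Its sums were 5 counts (95% Poisson interval 1.62 to 11.7) and 0 counts (at most 3.69), intervals that overlap and cover counting error only. *Wnt16*, known from bone and from joint formation, was at 3, 1 and 4 counts and at 1, 3 and 0 counts, with sums of 8 (3.45 to 15.8) and 4 (1.09 to 10.2). At these counts no difference between the groups was detectable for either gene.

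Of the 8 members tested, 1 was higher in the mutant libraries at an adjusted p under 0.05, and 0 were lower. By an unadjusted p under 0.05 in the same edgeR test, 3 were higher and 0 lower, DESeq2 called 2 higher and 0 lower, and limma voom called 3 higher and 0 lower. Over all 19330 genes tested, 10.4% were called higher, 9.84% were called lower and 20.2% were called in either direction, so 1 of 8 is near the share of all genes. The libraries of the groups did not overlap for 3 members, and in each of these the mutant libraries were the higher ones. Among all genes tested, 44.7% showed no overlap in either direction and 22.6% showed none with the mutant libraries higher. The log2 fold change was above 0 for 7 of the 8, with a median of 0.27, against a median of 0.01 over all genes tested. An exact permutation test of 3 against 3 libraries cannot give a two-sided p under 0.1, which is the value it gave for these 3 members.

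*Wnt3a*, a strong activator of β-catenin signaling that maintains stem cells and the embryonic axis, was the member called. It was 66.6, 49.1 and 53.8 CPM in the controls and 88.3, 73.4 and 97.6 CPM in the mutants. Every mutant library was above every control library, the nearest being control library 1 and mutant library 2. The mean rose from 56.5 ± 9.09 to 86.4 ± 12.2 CPM (SD, n = 3), which is 1.53-fold, and the log2 fold change was 0.61 (SE 0.15, 95% interval 0.28 to 0.95, adjusted p = 0.025, edgeR's quasi-likelihood test). The spread between libraries was 16.1% of the mean in the control group and 14.2% in the mutant group, at 2860 to 5761 counts a library. The call held in 11 of 17 alternative settings, with the log2 fold change between 0.43 and 0.74 and the adjusted p between 0.0024 and 0.13 in edgeR, DESeq2 and limma. It was lost when counts were corrected for GC content alone (0.43, adjusted p = 0.12) or with length (0.43, 0.13), and without control library 2 (0.51, 0.12), control library 3 (0.57, 0.11), mutant library 1 (0.60, 0.069) or mutant library 3 (0.51, 0.051) in edgeR. Without control library 1, the control with the other title code, it was 0.74 (adjusted p = 0.026).

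*Wnt4* and *Wnt10b* were above all control libraries in every mutant library but were not called. *Wnt4*, which acts in kidney, gonad and mammary gland development, was 174, 150 and 153 CPM in the controls and 190, 187 and 207 CPM in the mutants. The means were 159 ± 13.1 and 194 ± 10.9 CPM, and the log2 fold change was 0.29 (SE 0.11, adjusted p = 0.085). *Wnt10b*, a factor that favors bone over fat formation, was 2.97, 1.97 and 2.85 CPM against 3.13, 4.45 and 4.63 CPM. Its lowest mutant library was close to its highest control library. The means were 2.596 ± 0.543 and 4.07 ± 0.819 CPM, from 115 to 273 counts a library, with a log2 fold change of 0.65 (SE 0.23, adjusted p = 0.076). The size for *Wnt10b* was thus like that of *Wnt3a*, with a larger error. Other tools called them, voom calling *Wnt4* (0.34, adjusted p = 0.017) and DESeq2 calling *Wnt10b* (0.63, adjusted p = 0.047), over ranges of adjusted p of 0.017 to 0.55 and 0.047 to 0.25 in all alternatives.

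*Wnt6*, *Wnt10a* and *Wnt7b*, which are known from epithelia of skin and its appendages, were well measured and were not called. *Wnt6* was 139, 126 and 121 CPM in the controls and 157, 125 and 175 CPM in the mutants. Mutant library 2 lay within the control range, and the log2 fold change was 0.25 (SE 0.14, 95% interval -0.07 to 0.56, adjusted p = 0.22). Without mutant library 2 it was 0.38 (adjusted p = 0.036), voom gave 0.34 (adjusted p = 0.030), and the range over all alternatives was 0.030 to 0.94. *Wnt10a* was 116, 95.9 and 92.6 CPM in the controls and 103, 88.2 and 119 CPM in the mutants, so that the lowest and the highest value were both mutant. Its log2 fold change was 0.03, and the 95% interval of -0.29 to 0.35 leaves room for changes of either sign. *Wnt7b* was 42.4, 31.9 and 35.9 CPM against 39.0, 42.9 and 39.2 CPM, with overlap and a log2 fold change of 0.14 (SE 0.12, adjusted p = 0.43).

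*Wnt3* and *Wnt2b* were low and imprecise. *Wnt3*, the ligand closest to *Wnt3a* in sequence, was 0.792, 0.669 and 0.761 CPM in the controls and 1.34, 0.676 and 1.39 CPM in the mutants, from 39 to 82 counts. Mutant library 2 was at the control level while the other two were higher, and the log2 fold change of 0.61 (SE 0.32) had an adjusted p of 0.20. Without mutant library 2, edgeR gave 0.89 with an adjusted p of 0.035, in a range of 0.035 to 0.42 over the alternatives. *Wnt2b* was 0.994, 1.32 and 1.54 CPM against 1.32, 0.867 and 1.39 CPM, from 50 to 95 counts, with a log2 fold change of -0.11 (SE 0.28, adjusted p = 0.80). It was the only tested member with a value below 0.

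**Figure D2:**
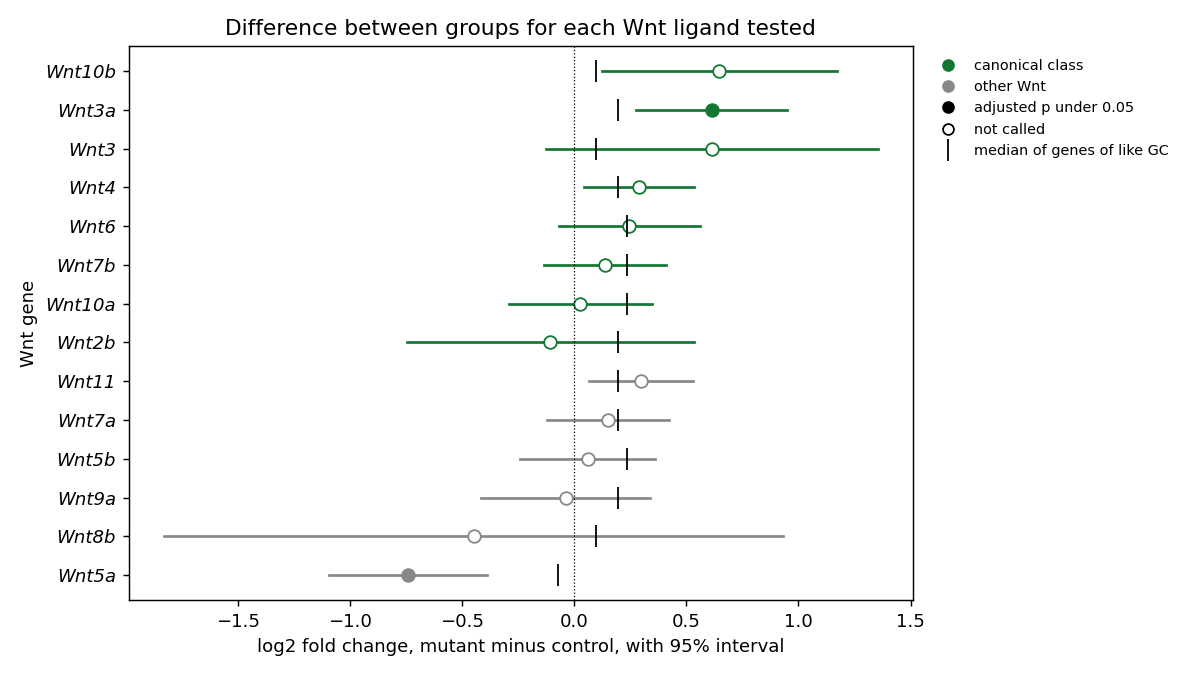
Log2 fold change (mutant minus control) with its 95% interval for the 14 Wnt ligands tested, the canonical class in green and the others in grey; filled points have an adjusted p under 0.05 and black ticks give the median of all genes in the same decile of GC content. *Wnt3a* at 0.61 and *Wnt5a* at -0.74 are the filled points.

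Within each group the members shared an order of libraries. Control library 1 was the highest control library for 7 of the 8 members tested, against 40.6% of all genes tested, and mutant library 2 was the lowest mutant library for 6 of the 8, against 36.9% of all genes. *Wnt2b* was the exception to the former, and *Wnt7b* and *Wnt10b* were those to the latter. Markers of the dental epithelium had a like order, control library 1 being the highest control for 13 of 18 and mutant library 2 the lowest mutant for 10 of 18.

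Ratios between members within a library do not depend on its total count, and are given as a description because the pairs were picked with the values known. The level per kb of *Wnt3a* over that of *Wnt10a* was 0.515, 0.457 and 0.520 in the control libraries and 0.770, 0.743 and 0.733 in the mutant libraries. This ratio varied less within each group than *Wnt3a* itself, and the groups were well apart. *Wnt6* over its neighbor *Wnt10a* was 1.35, 1.48 and 1.47 in the control libraries and 1.72, 1.60 and 1.65 in the mutant libraries. *Wnt3a* over *Wnt6* was 0.382, 0.309 and 0.354 against 0.446, 0.465 and 0.443. The groups thus did not overlap in any of these 3 ratios. *Wnt4* over *Wnt6* (0.656, 0.622 and 0.664 against 0.632, 0.778 and 0.618) and *Wnt3a* over *Wnt3* (93.8, 81.7 and 78.8 against 73.6, 121 and 78.3) overlapped.

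The remaining Wnt ligands give the context. *Wnt5a*, a noncanonical ligand of the dental mesenchyme that signals through *Ror2*, was 176, 244 and 230 CPM in the controls and 138, 111 and 140 CPM in the mutants. All mutant libraries were below the control libraries, with a log2 fold change of -0.74 (SE 0.15, adjusted p = 0.016), the only call among the 6 other ligands tested. Without control library 2 or 3 its adjusted p was 0.075 and 0.076. *Wnt11* was 9.25, 9.40 and 9.59 CPM against 11.5, 11.6 and 11.7 CPM (0.30, adjusted p = 0.070). *Wnt7a* (0.15), *Wnt5b* (0.06), *Wnt9a* (-0.04) and *Wnt8b* (-0.45) overlapped between groups and had an adjusted p of 0.38 or more, and *Wnt9b* was at 3 counts or fewer in each library. *Wnt1* and *Wnt8a* were listed too but were not among the genes of the count table.

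Summed per kb of exon, the 10 members had 186, 158 and 157 CPM per kb in the control libraries and 200, 174 and 223 CPM per kb in the mutant libraries, which overlap. As a share of the summed level of all 17 Wnt ligands, the members took 76.4, 70.8 and 71.4% in the control libraries and 77.5, 78.4 and 79.8% in the mutant libraries. The groups were apart in this share, by little for control library 1. The share of *Wnt3a* was 9.92, 7.99 and 8.84% against 12.4, 11.9 and 12.7%, while that of *Wnt5a* was 9.22, 14.0 and 13.3% against 6.81, 6.39 and 6.41%. Since shares add to a whole, the lower share of *Wnt5a* raises all others. By mean level, *Wnt3a* was the sixth of the 17 ligands in the control libraries and the fourth in the mutant libraries, and *Wnt5a* the fourth and the sixth. The level of *Wnt3a* over that of *Wnt5a* was 1.08, 0.569 and 0.664 in the control libraries and 1.82, 1.87 and 1.98 in the mutant libraries.

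**Figure D3:**
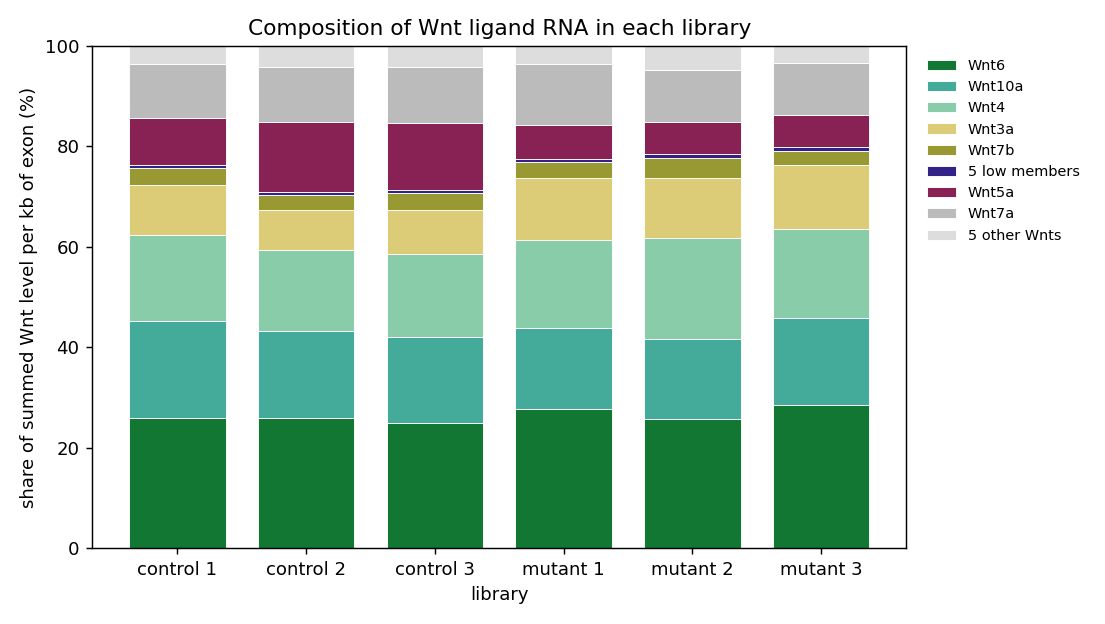
Stacked bars of the share (%) each Wnt ligand takes of the summed CPM per kb of exon of all 17 ligands, for each library. *Wnt3a* takes 7.99 to 9.92% in the control bars and 11.9 to 12.7% in the mutant bars, and *Wnt5a* 9.22 to 14.0% and 6.39 to 6.81%.

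The fold changes of all genes followed the GC content of their exons. By deciles of GC content, the median log2 fold change ran from -0.34 in the lowest decile to 0.23 in the highest, and the share of genes called higher from 3.10% to 20.1%. Of the members tested, 6 were in the top 2 deciles. *Wnt3a*, at 57.0% GC, had a log2 fold change of 0.61 where the median of its decile was 0.20. *Wnt4* at 0.29 was close to the same median, as was *Wnt6* at 0.25 to the 0.23 of the highest decile, and *Wnt7b* and *Wnt10a* at 0.14 and 0.03 were below it. *Wnt3* and *Wnt10b* were in the seventh decile with a median of 0.10. With a smooth correction for GC content in each library, *Wnt3a*, *Wnt4* and *Wnt10b* kept positive values (0.43, 0.11 and 0.52), those of *Wnt6*, *Wnt7b* and *Wnt10a* turned to -0.02, -0.10 and -0.31, and edgeR called 0 of the 8 members at an adjusted p under 0.05 and 2, both higher, at an unadjusted p under 0.05. The part of the GC trend in these differences was not tested.

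**Figure D4:**
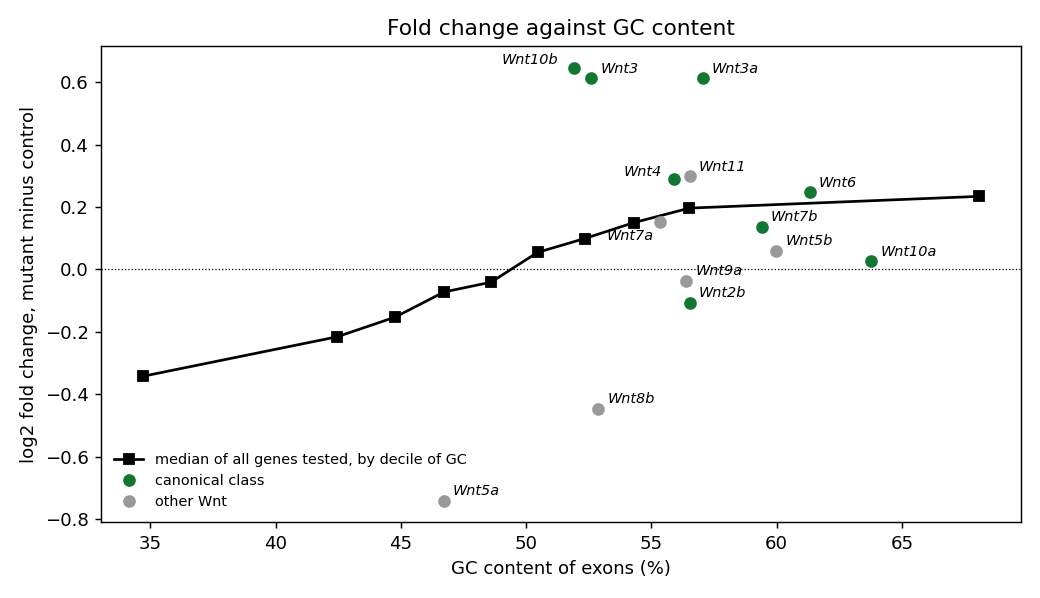
Log2 fold change (mutant minus control) against the GC content of exons (%); squares are medians of all genes tested in each decile of GC content, placed at the middle of the decile's range, and circles are Wnt ligands. The squares rise from -0.34 to 0.23. *Wnt3*, *Wnt3a* and *Wnt10b* lie furthest above them and *Wnt5a* and *Wnt8b* furthest below, with the members *Wnt2b* and *Wnt10a* among the others below.

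The levels of epithelial markers differed between libraries too. Of the 18 markers of dental epithelium, 0 were called by edgeR, 6 were higher and 1 lower at its unadjusted p under 0.05, and 12 had a log2 fold change above 0, with a median of 0.14. DESeq2 called 3 of them higher and 0 lower, and limma voom called 6 higher and 3 lower. *Krt14*, a keratin of basal epithelial cells, was 1178, 855 and 921 CPM in the controls and 1264, 1298 and 1341 CPM in the mutants. *Shh*, a signal of the dental epithelium, was 155, 99.6 and 102 CPM against 164, 135 and 197 CPM. *Trp63*, another marker of the list, went the other way, at 354, 331 and 343 CPM against 299, 217 and 318 CPM. The enamel protein genes *Amelx*, *Ambn* and *Enam* were the most abundant markers, at 88628 to 99214, 60637 to 68374 and 18314 to 21230 CPM in the controls and 122716 to 160441, 48613 to 74632 and 9922 to 16604 CPM in the mutants. Per 1000 CPM of *Krt14*, *Wnt3a* was 56.6, 57.4 and 58.5 CPM in the controls and 69.9, 56.6 and 72.8 CPM in the mutants, so that mutant library 2 was at the control level. Per 1000 CPM of *Shh* it was 429, 493 and 529 CPM against 538, 543 and 495 CPM, which also overlap. Relative to *Krt5*, another basal keratin, it was 32.5, 30.2 and 32.2 CPM against 44.2, 37.2 and 44.1 CPM, without overlap. Over all 18 markers, the ratio of *Wnt3a* was higher in every mutant library than in every control library for 11. The same count was 5 for *Wnt4*, 4 for *Wnt10b*, 2 for *Wnt6* and *Wnt7b* and 1 for *Wnt10a*. All 18 ratios of a member share its values, so they are not separate tests. *Wnt3a* itself did not overlap between the groups, and its ratio to a marker that was flat or lower in the mutants tends to separate for that reason alone. The part of epithelial RNA in the difference of *Wnt3a* was not tested.

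Other cell types varied as well, and counts of calls stand beside the 20.2% of all genes tested that were called in either direction. Summed markers of skeletal muscle were 24.1, 39.0 and 11.5 CPM in the controls and 2.94, 3.87 and 3.81 CPM in the mutants, with 7 of 8 genes called lower, and erythroid markers were 782 to 1320 CPM against 244 to 933 CPM, with 2 of 6 called lower. Odontoblast markers, led by *Col1a1*, *Col1a2* and *Dspp*, ranged from 20620 to 60963 CPM and from 17875 to 47691 CPM with 0 of 10 called by edgeR, where 1 was lower at an unadjusted p under 0.05, in DESeq2 and in voom. Among dental mesenchyme markers 1 of 12 was called higher (*Dlx2*) and 1 lower (*Prrx1*). In bone markers the only call of 6 was *Sost*, lower. In endothelium, pericytes, glia and leukocytes the calls were 1 of 8, 1 of 6, 2 of 6 and 2 of 8. The part of these cell types in the members' values was not tested.

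Before they can act, Wnt ligands are acylated by *Porcn*, carried to the cell surface by *Wls* and recycled carriers, and, outside the cell, inactivated by *Notum*. Of 15 genes of this group tested, 1 was called higher and 3 lower, against 10.4% and 9.84% of all genes tested. *Porcn*, the enzyme that acylates every Wnt, was 8.34, 7.12 and 8.13 CPM in the controls and 13.2, 17.7 and 10.5 CPM in the mutants. It rose 1.75-fold (log2 fold change 0.81, SE 0.19, adjusted p = 0.024) without overlap. *Wls* was 325, 276 and 290 CPM against 280, 229 and 304 CPM, with overlap and an adjusted p of 0.50. The genes called lower were *Vps35*, a retromer subunit that returns *Wls* (128 ± 0.954 to 87.9 ± 12.7 CPM, adjusted p = 0.020), and the cargo receptors *Tmed2* and *Tmed5* (log2 fold changes of -0.34 and -0.36). *Vps35*, *Tmed2* and *Tmed5* each share exonic sequence with other genes, and the value of *Tmed5* turned to 0.19 after GC correction. The adjusted p of *Porcn* was 0.055 to 0.11, and that of *Vps35* 0.0502 to 0.085, when a control library or mutant library 1 was left out. *Tmed2* lost its call whichever library was left out, and *Tmed5* unless it was mutant library 3. *Vps35* was -0.14 (adjusted p = 0.54) after GC correction and -0.034 (adjusted p = 0.87) with GC and length corrected.

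For receptors and their regulators, counts are set beside the 20.2% of all genes called in either direction. Of 16 Frizzled receptors and coreceptors tested, 0 were called higher and 1 lower by edgeR, 0 were higher at its unadjusted p under 0.05 or by DESeq2 or voom, 0 had a log2 fold change above 0, and the median was -0.24. The call was *Fzd1*, which was 33.2, 42.4 and 41.0 CPM in the controls and 29.3, 23.8 and 27.3 CPM in the mutants (-0.54, SE 0.13, adjusted p = 0.024). In the R-spondin axis, which keeps Frizzled receptors at the cell surface, 1 of 9 was called. *Rspo4*, an R-spondin, was 295, 290 and 281 CPM against 200, 178 and 101 CPM (-0.85, SE 0.23, adjusted p = 0.035). Among 14 secreted antagonists the calls were *Sfrp5*, which binds Wnts (8.80 ± 0.927 to 13.5 ± 2.35 CPM, log2 fold change 0.62, adjusted p = 0.030), and *Sost*, an osteocyte product that blocks *Lrp5* and *Lrp6* (-2.72, adjusted p = 0.0014). *Sost* was called whichever library was left out. *Fzd1* lost its call without control library 2 or 3, *Rspo4* without any control library, and *Sfrp5* without any library but mutant library 3, with adjusted p up to 0.11, 0.11 and 0.12. *Sfrp5* was 0.35 (adjusted p = 0.14) with the GC correction, 0.32 (0.18) with GC and length corrected, and 0.61 (0.062) with a replicate block, where *Fzd1* was not called either (adjusted p = 0.065).

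Inside the cell, 1 of 21 core components of the β-catenin pathway was called higher and 3 lower. Among all genes tested, the shares called higher and lower were 10.4% and 9.84%. *Pygo2*, a nuclear cofactor of β-catenin, was higher by a log2 fold change of 0.27, while its relative *Pygo1* (-0.40), *Apc2* of the destruction complex (-0.63) and the kinase gene *Csnk1a1* (-0.46) were lower. Of 19 genes that β-catenin is known to induce or that carry its signal in the nucleus, 2 were called higher and 0 lower by edgeR, with a median of 0.13. At an unadjusted p under 0.05 the counts were 4 and 1, in DESeq2 3 and 0, and in voom 4 and 0. With the correction for GC content, 2 were higher and 3 lower at an unadjusted p under 0.05, so that the balance of the directions did not hold. *Axin2*, which shares exonic sequence with *Gm11670* and is a feedback inhibitor widely used as a reporter of the pathway, was 33.0, 35.7 and 34.8 CPM in the controls and 59.5, 43.9 and 58.2 CPM in the mutants. It rose 1.56-fold (log2 fold change 0.64, SE 0.13, adjusted p = 0.014), with mutant library 2 again the lowest mutant library. The study, by contrast, reported neither *Axin2* nor active β-catenin as significantly changed in the dental mesenchyme at this age. It used in situ hybridization and qPCR for *Axin2* and immunostaining for β-catenin. The images were of the apical region of the molars, whereas the qPCR, like the RNA-seq here, was done on dissected dental pulp. The RNA-seq libraries also held epithelial RNA, and its part in the value of *Axin2* was not tested. *Myc*, a growth regulator, was 15.1, 14.3 and 15.6 CPM against 22.3, 19.0 and 22.6 CPM (0.50, SE 0.11, adjusted p = 0.019). *Notum* was 20.6, 24.0 and 23.4 CPM against 31.3, 28.5 and 27.0 CPM, without overlap and with an adjusted p of 0.0503. After GC correction the adjusted p of *Axin2* and *Myc* was 0.068 and 0.090 in edgeR, and over all alternatives it ran from 0.00030 to 0.070 and from 0.0034 to 0.13. Without control library 2 or 3 it was 0.062 and 0.070 for *Axin2*, and *Myc* lost its call without any control library or mutant library 1. The 4 core genes were not called without control library 2 or 3, nor with a replicate block, and with the GC correction *Apc2* was the one core gene called (-0.91, adjusted p = 0.013). There *Pygo2* was 0.053 (adjusted p = 0.71), and *Pygo2* kept its call in 1 of 6 fits without a library. With GC and length corrected, *Pygo1* and *Csnk1a1* were both -0.17 (adjusted p = 0.28 and 0.32).

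**Figure D5:**
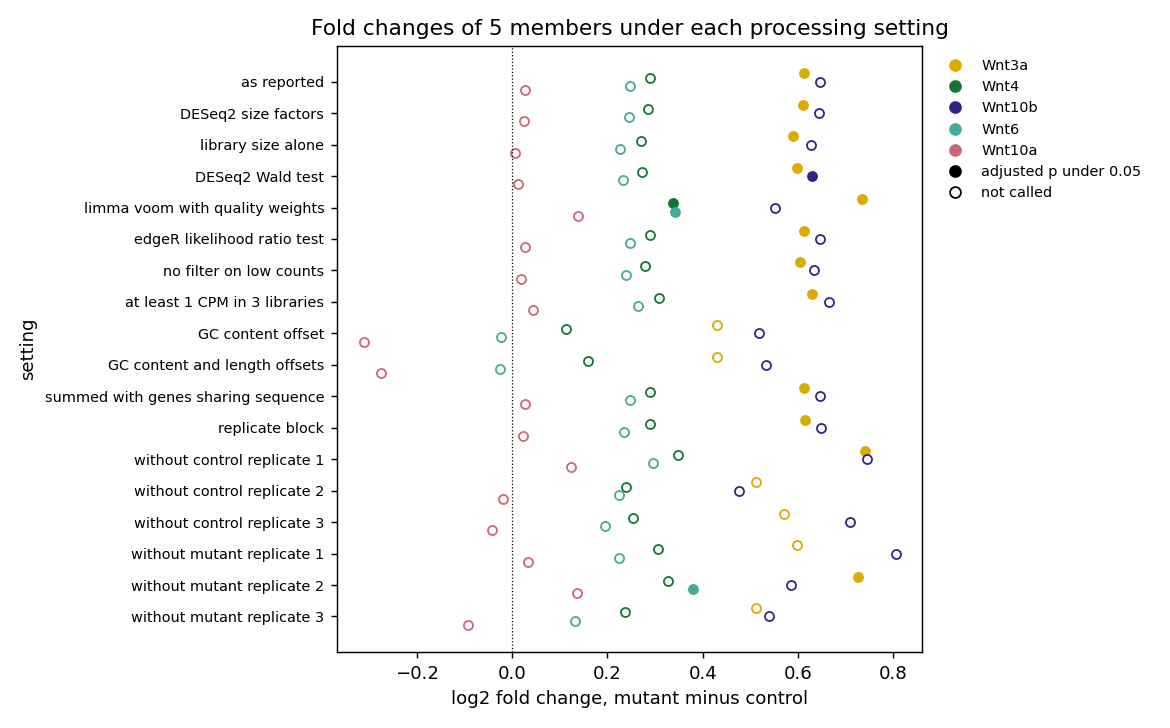
Log2 fold change (mutant minus control) of *Wnt3a*, *Wnt4*, *Wnt10b*, *Wnt6* and *Wnt10a* under the reported and 17 alternative settings; filled points have an adjusted p under 0.05. *Wnt3a* stays between 0.43 and 0.74 and *Wnt10b* between 0.48 and 0.80, whereas *Wnt6* and *Wnt10a* cross 0 under GC correction.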

How the data were processed

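Total RNA of dental pulp was sequenced in 6 libraries, grouped as control and mutant by the genotype in the labels. The authors deposited estimated counts per gene without normalization, of which 48.7% were whole numbers. The methods name single-end reads of 75 cycles, TopHat and counting over exons on mm10, whereas the submitters' processing notes list STAR 2.6.1d and Partek. The rule for reads that fit several genes and the annotation are not given in the sources used here. A normalized table and 6 columns of other samples were not used.

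The design foresaw whole counts, so estimated counts were rounded. R 4.3.3 with edgeR 4.0.16 was used with TMM scaling and filterByExpr. Its quasi-likelihood test had no block, and adjustment was by Benjamini-Hochberg over 19330 genes. A call is an adjusted p under 0.05. CPM are TMM-scaled. For permutation tests, CPM were put on the log2 scale after adding a prior count of 2. Exon lengths, GC content and coordinates are from GENCODE M21, and all 27506 genes matched. Intervals and floors on counts cover counting error only. The test was checked on simulated data.

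Alternatives were DESeq2 1.42.0, limma 3.58.1 voom with quality weights, the likelihood ratio test, other scalings and filters, smooth offsets for GC content and length (splines of 5 degrees of freedom), counts summed over genes sharing at least 20 stretches of 75 bases, a replicate block, and leaving out each library. The text names all Wnt ligands, *Ror2*, the called genes of each Wnt pathway list and the 3 markers with the highest mean CPM in a list where markers are named. *Krt5*, *Krt14*, *Shh*, *Trp63*, *Notum*, *Wls*, *Dlx2*, *Prrx1* and *Sost* among the markers were named after their values were seen. The members, the 18 gene lists and the tests were chosen with earlier results of these data known.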

Additional observations from a re-analysis of the deposited data

How the results depend on the processing

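*Wnt3a* kept its direction in all 17 alternatives and its call in 11, with 0.61 under DESeq2 size factors, 0.74 with voom and a range of 0.51 to 0.74 when each library was left out. The log2 fold change of *Wnt3a* was 0.43 with the offset for GC content and 0.43 with that for GC content and length, both not called. The GC offset turned *Wnt6* to -0.024, *Wnt7b* to -0.10, *Wnt10a* to -0.31, *Wnt5b* to -0.20, *Wnt7a* to -0.014 and *Tmed5* to 0.19, and the GC and length offsets gave -0.025, -0.021, -0.28, -0.20, -0.00069 and 0.29, none of them called before or after except *Tmed5* before. With voom, *Wnt5b* was -0.0056 and *Wnt8b* 0.16, and *Wnt4* (0.34) and *Wnt6* (0.34) were called, while DESeq2 called *Wnt10b* (0.63). Leaving out each library gave ranges of -0.27 to 0.088 for *Wnt2b*, 0.44 to 0.89 for *Wnt3*, 0.13 to 0.38 for *Wnt6*, -0.092 to 0.14 for *Wnt10a*, -0.027 to 0.13 for *Wnt5b* and -0.15 to 0.070 for *Wnt9a*. The cause of these shifts was not tested.

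The count of members called was 2 in DESeq2, 3 in voom, 0 under both GC offsets and 0 to 3 when each library was left out. Over all genes, 6341 were called by voom and 872 to 5001 when each library was left out. Other counts moved as follows. With voom they were 2 other Wnt ligands, 7 production genes, 4 of the R-spondin axis, 4 receptors, 8 core genes and 4 targets. The R-spondin axis and the receptors had 2 calls each in DESeq2 and the likelihood ratio test, and 3 and 2 with library size alone, where production had 2. Without a filter, production and core genes had 2 each, and summing genes that share sequence gave 2 in the R-spondin axis. The GC offset gave 1 production gene, 1 antagonist, 1 core gene and 0 targets, and GC with length gave 1, 2 and 1 for production, core and targets. Leaving out each library gave 0 to 1 other Wnt ligands, 0 to 4 production genes, 0 to 1 in the R-spondin axis, 0 to 2 receptors, 1 to 3 antagonists, 0 to 6 core genes and 0 to 3 targets.

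Same-numbered libraries of the groups did not deviate together (correlations of -0.10, -0.08 and -0.0038). The methods speak of pairs of samples without saying which belong together, and the numbers follow the order of the columns. These correlations therefore cannot decide whether libraries were paired, and a pairing other than by number was not tested. With the replicate number as a block, *Wnt3a* was 0.62 (adjusted p = 0.035), 2013 genes were called in all, and production, receptor, core and target genes called numbered 1, 0, 0 and 1.

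With the longest transcript as length, control levels were 0.387 for *Wnt2b*, 10.8 for *Wnt7b* and 0.958 CPM per kb for *Wnt10b*. *Wnt3* could not be tested where at least 1 CPM in 3 libraries was required. Summing genes that share sequence was run for the listed genes only. With 3 libraries a group, low counts limit *Wnt2*, *Wnt16*, *Wnt3* and *Wnt2b*.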
